A study of Mus musculus with 168 samples.

Results

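Mir204, Mir211, Mir1298 and Mir1912 are 4 microRNAs grouped here as linked to the choroid plexus, by their own expression or by that of the genes that hold them. The host of Mir211 is known from other cells, and Mir211 showed no relation to the other 3 that passed the test. The name is therefore not borne out here for Mir211. They were taken from the table by gene name, and each of the 4 names matched exactly 1 of the 1626 transcripts and 1 of the 329 microRNAs tested. The libraries came from the cortex of C57BL/6 mice of 2, 6 or 10 months. Knock-in mice were heterozygous for an Htt allele that carries human HTT exon 1 with a CAG repeat of the length in the line's name (Q20, Q80, Q92, Q111, Q140 or Q175), so every knock-in mouse also kept a wild-type allele. WT mice were littermates of the Q20 line and carried no knock-in. The Q175 line arose from the Q140 line by spontaneous expansion of the repeat, and it therefore stands for 1 line rather than for a repeat length alone. Each of the 21 combinations of 7 genotypes and 3 ages held 8 libraries. Library names of 2 and 10 months hold a code that begins with the line's name. It was read here as the cage, which is an assumption, and its sex as that of most of its libraries. By the sex of the cage 4 came from each sex, and by the labels 2 groups had 5 and 3 (Q20 of 10 months with 5 females, Q80 of 2 months with 5 males). The study's methods list WT cortex at 2 and 10 months only. The 8 libraries labelled WT of 6 months are therefore described apart, and 160 libraries enter the comparisons.

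The choroid plexus is the secretory epithelium in the ventricles that makes cerebrospinal fluid, and it is not a part of the cortex. A microRNA cut from an intron is made from the transcript of its host gene, and it represses messenger RNAs that pair with its seed, the bases near its 5′ end. Trpm3, a cation channel gene, is strongly expressed in choroid plexus epithelium. Htr2c, the gene of a serotonin receptor, is expressed very highly in that epithelium and also in neurons. Trpm1, a relative of Trpm3, is known from melanocytes and retinal bipolar cells. In bulk tissue, fewer cells of a type and less RNA per cell cannot be told apart.

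All 4 genes lie in introns on GRCm38 by the GENCODE annotation, and none overlapped an exon of its host. Mir204 (ENSMUST00000083573, chr19:22750605-22750672, plus strand) lies within 18 transcripts of Trpm3. Mir211 (ENSMUST00000083651, chr7:64205806-64205911, plus strand) lies within 12 transcripts of Trpm1. Mir1298 (ENSMUST00000116681, chrX:147064905-147065002, plus strand) and Mir1912 (ENSMUST00000175298, chrX:147009441-147009527, plus strand) lie within 6 transcripts of Htr2c each. Htr2c introns also hold Mir1264, Mir448 and Mir764, which are no members and serve below as neighbours on the same host.

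The mature sequences are shown because they decide which members can be told apart by a read. They are RefSeq sequences on GRCm38.p6, 5′ to 3′, with the seed, bases 2 to 8, in capitals.
miR-204-5p: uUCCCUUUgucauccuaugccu
miR-211-5p: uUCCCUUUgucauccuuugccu
miR-1298-5p: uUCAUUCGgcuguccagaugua
miR-1912-3p: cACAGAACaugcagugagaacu
miR-448-3p: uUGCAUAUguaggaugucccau
The 5p arms of Mir204 and Mir211 have the same seed and differed at 1 of 22 bases, A17U, with positions counted from the 5′ end of miR-204-5p. No other tested microRNA had the seed of any mature arm of a member. The values are totals per microRNA gene, so they do not separate the 5p from the 3p arm.

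Reads were divided between Mir204 and Mir211 in the deposited table. The estimated count of each was not a whole number in any of the 168 libraries, whereas their sum was within 0.001 of a whole number in 162 of them. Mir211 had between 0.432 and 6.60 estimated counts for every 1000 of Mir204, with a median of 2.41. The level of Mir211 is therefore uncertain, because a small shift of reads between the pair would change it by a large share. Mir1298 and Mir1912 had whole counts throughout.

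Depth differed strongly between members. Totals per library ran from 2041741 to 11646287 counts, with a median of 4810487. Mir204 had 7831 to 61592 counts per library (median 15310) and Mir1298 had 457 to 10123 (median 1302.5). Mir211 had 10 to 158 counts (median 35). Mir1912 had 0 to 117 counts (median 7.5), and 116 of the 168 libraries held fewer than 10. In the 2 libraries without a Mir1912 count, a limit of 3 counts corresponds to 0.565 and 0.925 CPM (counts scaled to a library of 1000000), and the upper Clopper-Pearson limits are 0.695 and 1.14 CPM. The library with the most Mir1912 counts had 20.3 CPM, with a 95% interval of 16.8 to 24.4 (Clopper-Pearson, counting error only). All levels below are CPM after TMM normalisation over all libraries.

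At 2 months the levels of Mir204, Mir1298 and Mir1912 were even between genotypes. Median Mir204 levels per genotype lay between 3064 CPM in Q111 and 3416 CPM in WT, and the 56 libraries ran from 2340 to 5465 CPM. Median Mir1298 levels lay between 264 CPM in Q80 and 284 CPM in Q175, with single libraries from 213 to 745 CPM. Median Mir1912 levels lay between 1.25 CPM in Q92 and 1.57 CPM in Q140, with single libraries from 0 to 7.78 CPM. The 7 medians of each of these microRNAs thus lay closer together than the libraries of a genotype did. Median Mir211 levels were 12.5 CPM in WT, 12.03 CPM in Q20, 9.37 CPM in Q140, 9.28 CPM in Q80, 9.10 CPM in Q92, 8.01 CPM in Q111 and 7.47 CPM in Q175. The ranges overlapped, from 7.01 to 17.6 CPM in WT and from 5.08 to 13.2 CPM in Q175, so no neighbours in this order differed beyond their spread.

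At 6 months the 48 knock-in libraries had a Mir204 median of 2549 CPM and ran from 1834 to 5598 CPM. The medians of the genotypes lay between 2415 CPM in Q92 and 2817 CPM in Q140. For Mir1298 the libraries ran from 181 to 767 CPM, and the genotype medians from 213 CPM in Q111 to 255 CPM in Q140. A few libraries stood far above their own genotype, for instance 5598 CPM of Mir204 in a Q140 female whose group otherwise ended at 3170 CPM. Mir1912 ran from 0.419 to 9.36 CPM, with genotype medians from 1.09 CPM in Q111 to 1.71 CPM in Q80. Mir211 ran from 2.49 to 17.04 CPM, with genotype medians from 5.45 CPM in Q80 to 10.5 CPM in Q140.

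In the WT libraries of 6 months the Htr2c microRNAs did not all stand on the same side of the knock-in libraries of that age. These values are a description, with no test. Mir1298 was 220 to 626 CPM in them (median 528.01), 2.35 times the knock-in median, and 7 of the 8 lay above that median. Mir448, a neighbour in Htr2c, had 2.13 times the knock-in median. Mir1264 and Mir764, on the same host, had 0.599 and 0.501 times the knock-in median. Mir1912 was 0.250 to 2.56 CPM, with a median of 1.18 CPM against 1.49 CPM. Mir211 was 5.92 to 13.4 CPM, with a median 1.63 times that of the knock-in libraries. Mir204 was 2412 to 3260 CPM, and its median of 2628 CPM was 1.03 times that of the knock-in libraries. High Mir1298 without high Mir204 was thus the pattern of 7 of these libraries. The female with replicate number 3 had the lowest Mir1298 of the group, 220 CPM against 457 to 626 CPM in the others, and the highest Mir204. The library names give all 8 the L number 3, read here as the lane, and the part of any batch in this pattern was not tested. These libraries enter no comparison below.

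At 10 months single libraries spread far more widely. Mir204 ran from 2464 to 10922 CPM, a 4.43-fold range. Mir1298 ran from 126 to 1682 CPM, a 13.4-fold range, and Mir1912 from 0.222 to 19.4 CPM. Genotype medians of Mir204 were 4864 CPM in Q20, 4397 CPM in Q140, 3369 CPM in Q111, 3106 CPM in Q80, 3012 CPM in WT, 2967 CPM in Q92 and 2700 CPM in Q175. In this order the range of each genotype overlapped with that of the next. Mir1298 medians were 575 CPM in Q20 and 509 CPM in Q140, and between 179 CPM in Q175 and 288 CPM in Q111 in the other five genotypes. Mir1912 medians were 5.74 CPM in Q140 and 5.53 CPM in Q20, and from 0.968 to 2.12 CPM elsewhere.

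Q175 was the genotype of 10 months without high libraries. Its 8 libraries had 2519 to 3066 CPM of Mir204 (median 2700), 127 to 227 CPM of Mir1298 (median 179) and 0.222 to 1.99 CPM of Mir1912 (median 1.03). The Q20 libraries of the same age had 2730 to 10922 CPM, 141 to 1268 CPM and 0.308 to 12.1 CPM. The WT libraries of that age had 2464 to 5352 CPM, 126 to 608 CPM and 0.640 to 7.26 CPM. The lower ends of the 3 groups were alike, and Q175 overlapped with both control groups for each microRNA.

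Mir211 did not share this spread. At 10 months it ran from 3.73 to 18.3 CPM, and its genotype medians lay between 5.99 CPM in Q20 and 8.12 CPM in Q111. The male Q20 library with the highest Mir204 (10922 CPM) had 4.71 CPM of Mir211, the lowest of its group. That value rests on 10 estimated counts, in the library with the fewest counts of all. Its 95% interval in library-size CPM was 2.35 to 9.01 (Clopper-Pearson, counting error only), and the highest of the group was 8.79 CPM.

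**Figure D1:**
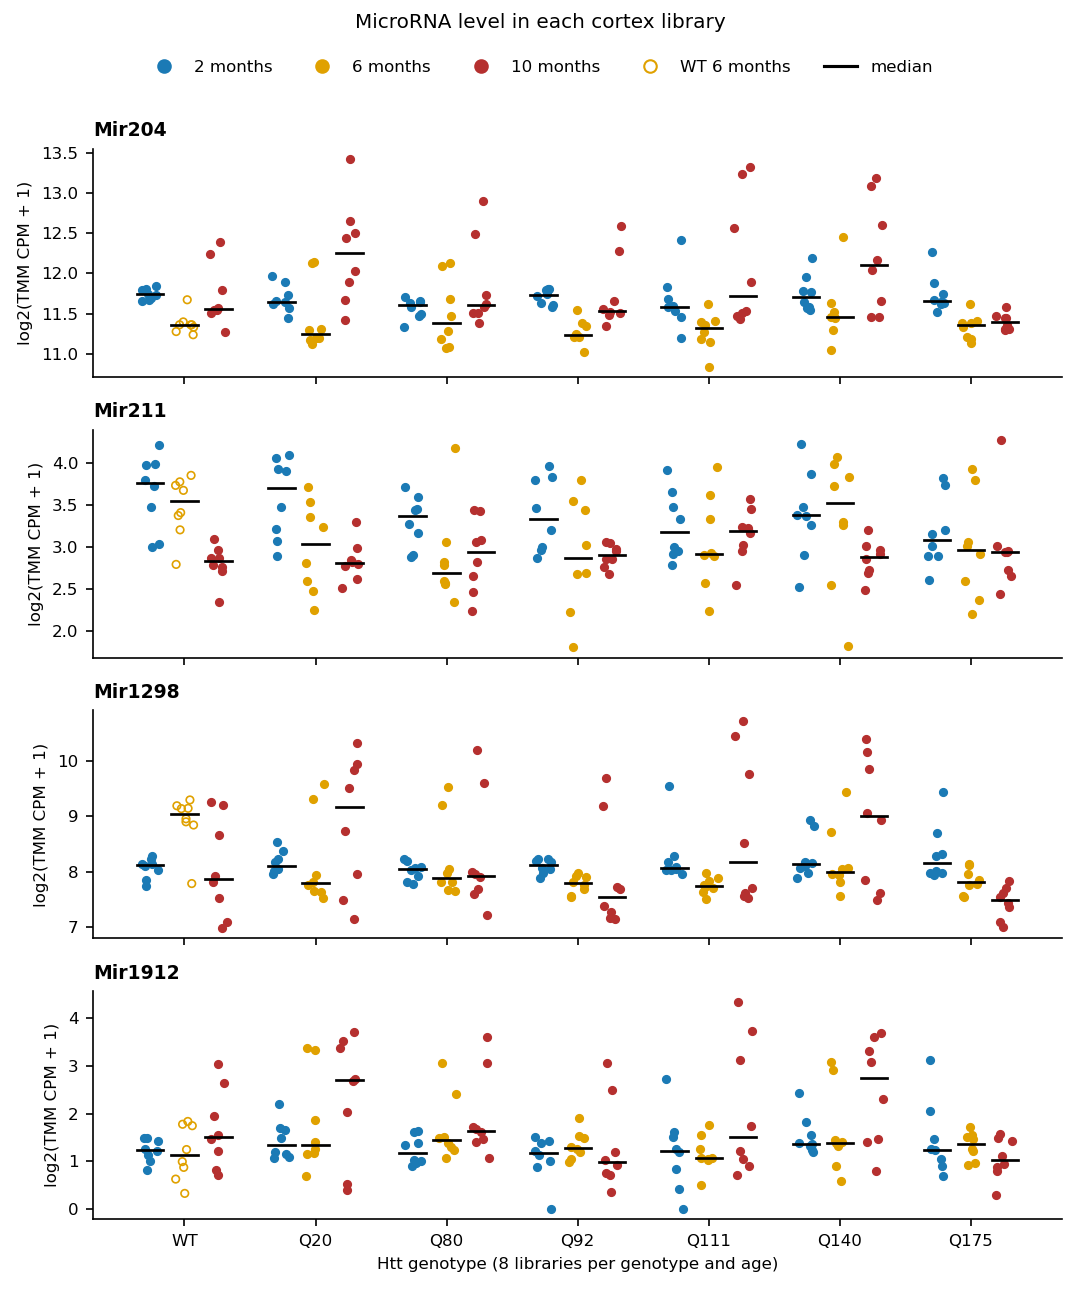
Level of each microRNA, as log2(TMM CPM + 1), in every library by genotype (x axis) and age (colour), with 8 libraries per column, the WT libraries of 6 months as open circles and the median as a bar. At 10 months Mir204, Mir1298 and Mir1912 have a long upper tail in all genotypes except Q175, and Mir211 has none in common with them.

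The 3 microRNAs with a long upper tail varied together from library to library. Within each age, Pearson's r and Spearman's rho of log2(CPM + 1) were computed for the 6 pairs of members, which gave 18 relations, and each p came from 100000 two-sided permutations with Benjamini-Hochberg adjustment over the 18. At 10 months rho was 0.851 between Mir204 and Mir1298 (r = 0.958), 0.765 between Mir204 and Mir1912 (r = 0.911) and 0.864 between Mir1298 and Mir1912 (r = 0.952), over 56 libraries. The adjusted permutation p was 4.5e-05 for each rho, from a raw p of 1e-05, the smallest that these permutations can give. At 6 months rho was 0.765, 0.395 and 0.445 for the same pairs over 48 libraries (adjusted permutation p = 4.5e-05, 0.0151 and 0.00537). At 2 months rho was 0.351, 0.416 and 0.230 over 56 libraries (adjusted permutation p = 0.0191, 0.00536 and 0.174), with r of 0.732, 0.678 and 0.659.

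The co-variation was also present in deviations from group means, pooled over the genotypes of an age, and no single genotype was taken alone. With the mean of each genotype and age subtracted, rho at 10 months was 0.931 between Mir204 and Mir1298, 0.8997 between Mir204 and Mir1912 and 0.926 between Mir1298 and Mir1912. At 6 months the same values were 0.807, 0.591 and 0.710, and at 2 months 0.498, 0.567 and 0.386. Without the 2 libraries farthest from the median of the first microRNA, r was 0.956, 0.908 and 0.943 at 10 months and 0.866, 0.646 and 0.788 at 6 months. At 2 months r was then 0.511, 0.504 and 0.408.

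Mir211, which shares its seed and some reads with Mir204, showed no relation to it that passed the test. In order of age its rho with Mir204 was -0.03, 0.17 and 0.08 (adjusted permutation p = 0.857, 0.411 and 0.749). With Mir1298 and Mir1912 its rho lay between -0.11 and 0.24 at the 3 ages. The sign of the Mir204 relation at 2 months turned with library-size CPM in place of TMM CPM.

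The microRNAs nearest to each member were looked for over the 160 libraries, with the mean of each genotype and age subtracted, among 263 others with a mean of at least 10 counts. Mir1298 was nearest to Mir448 (rho = 0.925), Mir204 (0.827) and Mir1912 (0.771). Mir204 was nearest to Mir1298, Mir448 (0.815) and Mir1912 (0.751). Mir1912 was nearest to Mir1298, Mir204 and Mir448 (0.751). All 3 lists thus closed on the same 4 microRNAs, of which Mir1298, Mir1912 and Mir448 lie in Htr2c and Mir204 on another chromosome. The median rho over the 263 was -0.01 for Mir204. Mir211 had no near neighbour, with Mir679 (0.199), Mir3085 (0.196) and Mir26a-1 (0.183) first. These rho values are descriptions, and the points share library depth and normalisation.

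The other neighbours in Htr2c followed less closely. Mir1264 had a rho of 0.705 with Mir1298, 0.677 with Mir204 and 0.620 with Mir1912. Mir764 had a rho of 0.506 with Mir1298, 0.344 with Mir204 and 0.390 with Mir1912.

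**Figure D2:**
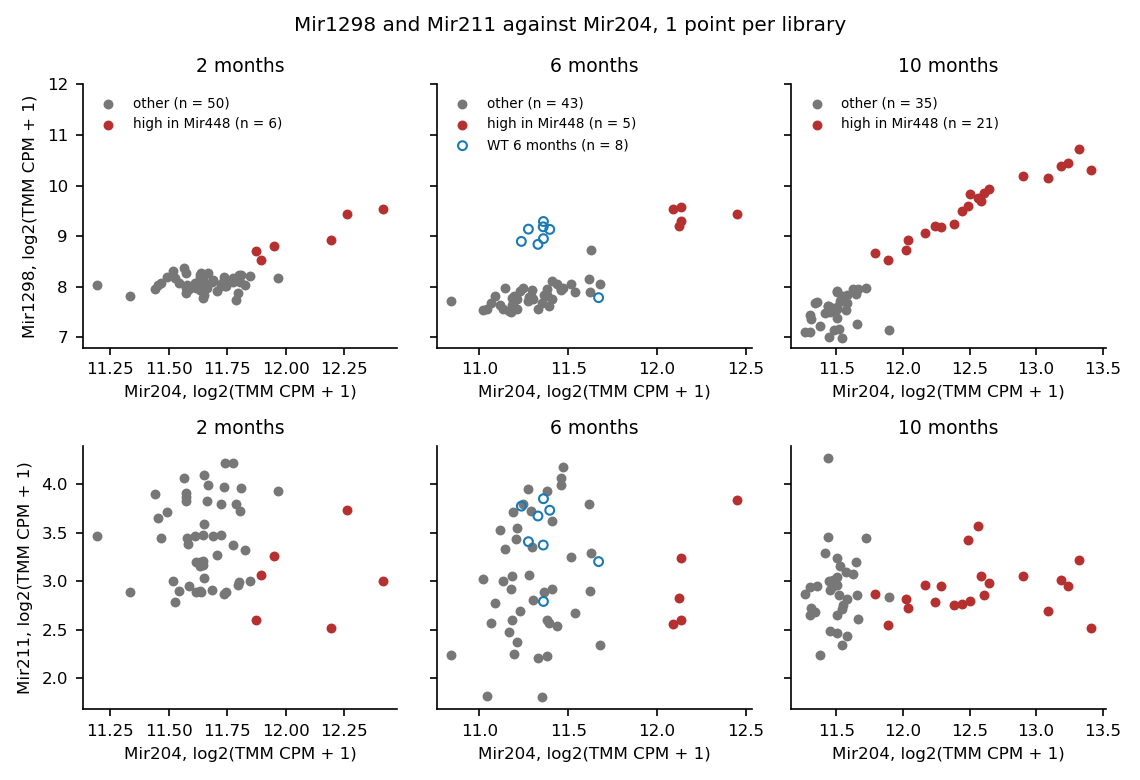
Mir1298 (top) and Mir211 (bottom) against Mir204, both as log2(TMM CPM + 1), with 1 point per library at each age; libraries high in Mir448 are red and the WT libraries of 6 months are open circles. Mir1298 climbs with Mir204 in the red libraries, most of all in the 21 of 10 months, Mir211 does not, and 7 of the 8 WT libraries of 6 months lie above the others without high Mir204.

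Libraries with high levels were set apart by Mir448, which is no member but follows Mir1298 (rho = 0.925), Mir204 (0.815) and Mir1912 (0.751). A library was counted as high where its Mir448 CPM exceeded 1.5 times the median of its age, a limit chosen after the data were seen. The nearest libraries on either side of it were at 1.59 and 1.40 times the median, and the highest at 8.20 times. Of the 160 libraries 32 were high. In order of age they were 6 of 56, 5 of 48 and 21 of 56.

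At 10 months the high libraries were 5 of 8 in Q20, 5 of 8 in Q140, 4 of 8 in Q111, 3 of 8 in WT, 2 of 8 in Q80, 2 of 8 in Q92 and 0 of 8 in Q175. At 6 months they were 2 in Q20, 2 in Q80 and 1 in Q140. At 2 months they were 2 in Q140, 2 in Q175, 1 in Q111 and 1 in Q20. No genotype was high throughout, and Q175 had high libraries at 2 months but none at 6 or 10 months. By sex (of the cage), 9 of 28 female and 12 of 28 male libraries of 10 months were high. By the L number of the library names, read as the lane, 8 of 21, 9 of 25 and 4 of 10 were high at 10 months, or 38.1%, 36% and 40%. All 5 high libraries of 6 months carried the library code LB, and none of the 11 with code V was high. At 10 months 9 of 14 cages held a high library, and in none were all libraries high. The code read as the cage begins with the line's name, so each held a single line by its form. Median totals were 4914160 counts in the high and 4806574 counts in the other libraries. The rho of each member with the library total lay between -0.22 and 0.17 at the 3 ages.

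Members moved unequally in the high libraries. Because these were chosen by Mir448, which follows Mir204, Mir1298 and Mir1912, raised levels of those microRNAs follow in part from that choice. At 10 months Mir204 was 1.22 to 3.76 times the median of the other libraries (median 2.00 times), and 19 of 21 lay above every other library. Mir1298 was 1.96 to 8.98 times that median (median 4.40 times), and all 21 lay above every other library. Mir1912 was 2.14 to 17.9 times (median 6.92 times). Mir211 was 0.723 to 1.67 times, with 10 of 21 above the median of the others. At 6 months the median fold of the 5 high libraries was 1.79 for Mir204, 3.09 for Mir1298 and 5.34 for Mir1912. At 2 months that of the 6 high libraries was 1.35, 1.76 and 3.03. At each age the order of the folds was thus the same. Mir1264 and Mir764, which also lie in Htr2c, had median folds below that of Mir204 at each age. At 10 months these were 1.97 and 1.38 against 2.00, so Mir1264 was close to Mir204. The part of the host gene in the folds was not tested.

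Within the high and the other libraries the relation differed in strength. Among the 21 high libraries of 10 months rho was 0.983 between Mir204 and Mir1298, 0.886 between Mir204 and Mir1912 and 0.927 between Mir1298 and Mir1912. Among the 35 others it was 0.408, 0.083 and 0.459. Among the 50 others of 2 months it was 0.093, 0.182 and -0.08, and among the 43 others of 6 months 0.674, 0.159 and 0.228. Each value without the high libraries was lower than the pooled one. Since Mir448 follows Mir1298 and Mir204, leaving out libraries by Mir448 narrows the range of the members, and a lower rho in the rest follows in part from that choice.

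**Figure D3:**
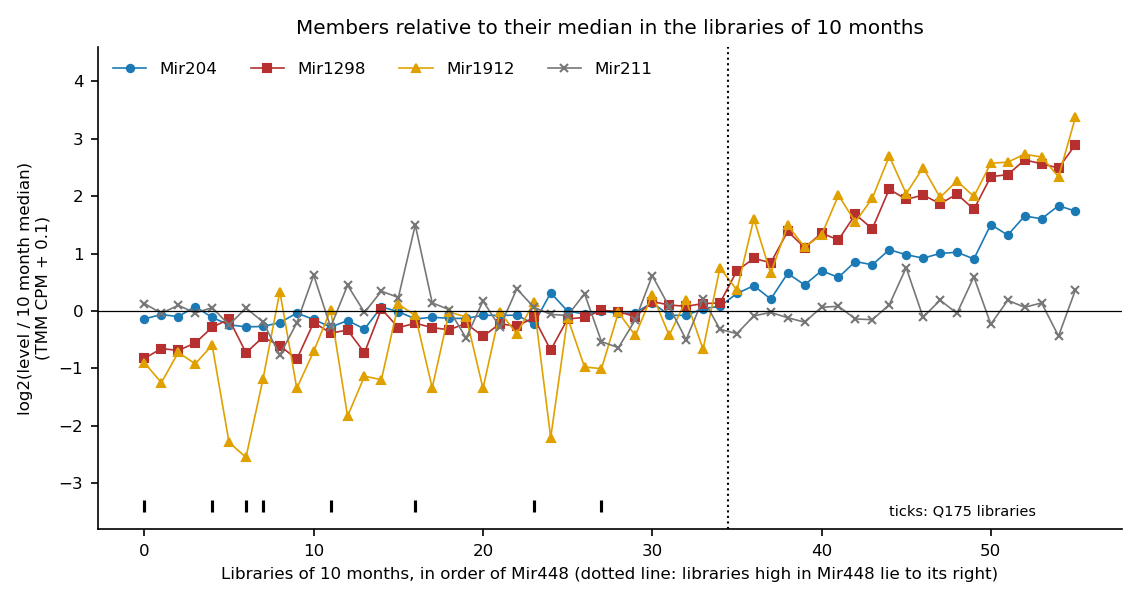
The 56 libraries of 10 months in order of Mir448, with each member as log2 of its level over its median at 10 months (TMM CPM + 0.1); ticks mark Q175 libraries. Mir204, Mir1298 and Mir1912 climb together in the 21 libraries right of the dotted line, Mir211 stays flat, and all 8 Q175 libraries lie left of it.

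Markers of other cell types were summed in library-size CPM beside these libraries. The list of 11 neuronal microRNAs, each above 0 in every library, summed to 102543 to 125794 CPM in the high and 101161 to 129802 CPM in the other libraries of 10 months. The 3 microRNAs of the vessel wall, the 3 of blood cells and the 3 of microglia and leukocytes had medians in the high libraries within 0.975 to 1.05 times those of the others at that age. The 4 muscle microRNAs were at 1.001 times. The liver microRNA Mir122 was 0.197 to 9.60 CPM in the high and 0.221 to 12.4 CPM in the other libraries.

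The list of 13 epithelial and ciliated-cell microRNAs moved in part with the high libraries of 10 months. Its sum was 1099 to 3035 CPM in them (median 2045) and 942 to 2265 CPM in the others (median 1291). Within it, Mir34c had medians of 1252 and 619 CPM and Mir34b of 72.9 and 42.8 CPM, and these are microRNAs of multiciliated cells. Mir449a, of the same seed family, had 2.16 and 3.03 CPM, and Mir429 had 81.8 and 83.8 CPM. By median, Mir449c, Mir200a, Mir200b, Mir200c, Mir182 and Mir183 were also lower or level in the high libraries, and Mir141 and Mir96 were slightly higher. Mir449b was at 0 in 110 of 160 libraries. At 2 months the sum was 1002 to 14651 CPM in the high and 606 to 36640 CPM in the other libraries. At 6 months it was 1953 to 32483 CPM and 1015 to 43389 CPM. The sum thus did not separate them at these ages, at which single microRNAs of the list were not compared. The part of choroid plexus or other tissue in the high libraries was not tested, and no list fixed here holds choroid plexus markers outside the Htr2c introns. With the members left out, the 3 other microRNAs of the Htr2c introns summed to 58.2 to 272 CPM in the high and 28.5 to 75.1 CPM in the other libraries of 10 months.

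The association with CAG length asks whether a level changes with the repeat, and it was fitted at each age with 7 for WT. None of the 4 members passed an FDR of 0.05 at 2 months, where 0% of 327 microRNAs were called (13 had an unadjusted p under 0.05, and DESeq2 called 0 members). None passed at 6 months, where 2.75% were called, nor at 10 months, where 8.84% of 328 were called. At 10 months the log2 change per 100 CAG was -0.12 ± 0.16 (SE) for Mir204, -0.17 ± 0.30 for Mir1298, -0.23 ± 0.36 for Mir1912 and 0.16 ± 0.09 for Mir211. The 95% interval was -0.44 to 0.19 for Mir204 and -0.76 to 0.43 for Mir1298, which leaves room for sizeable changes either way.

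At 6 months Mir1912 had the lowest estimate, -0.63 ± 0.30 per 100 CAG (edgeR adjusted p = 0.232), which was -0.013 with outlier counts replaced. Mir1298 was at -0.26 ± 0.18, Mir204 at -0.09 ± 0.11 and Mir211 at 0.10 ± 0.20. At 2 months Mir211 was at -0.28 ± 0.11 and Mir1298 at 0.18 ± 0.08, both with an adjusted p of 0.841. Mir1912 was then at 0.30 ± 0.20 and Mir204 at 0.03 ± 0.05. Combining the 6 and 10 month fits into a meta-analysis called 11.9% of 327 microRNAs. Its Z was -1.16 for Mir204, -1.39 for Mir1298, -1.90 for Mir1912 and 1.55 for Mir211, with adjusted p between 0.200 and 0.494.

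At some ages the estimates for Mir204, Mir1298 and Mir1912 changed sign without the high libraries or without the Q175 mice. Without the high libraries the change per 100 CAG at 6 months was 0.055, 0.12 and 0.098, and at 2 months -0.058, -0.010 and -0.13, whereas at 10 months it kept its sign at -0.089, -0.034 and -0.14. Without the Q175 mice the change at 10 months was 0.18, 0.34 and 0.35, whereas at 6 months it kept its sign at -0.045, -0.21 and -0.57. None of these was called. Mir211 held its sign in both.

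**Figure D4:**
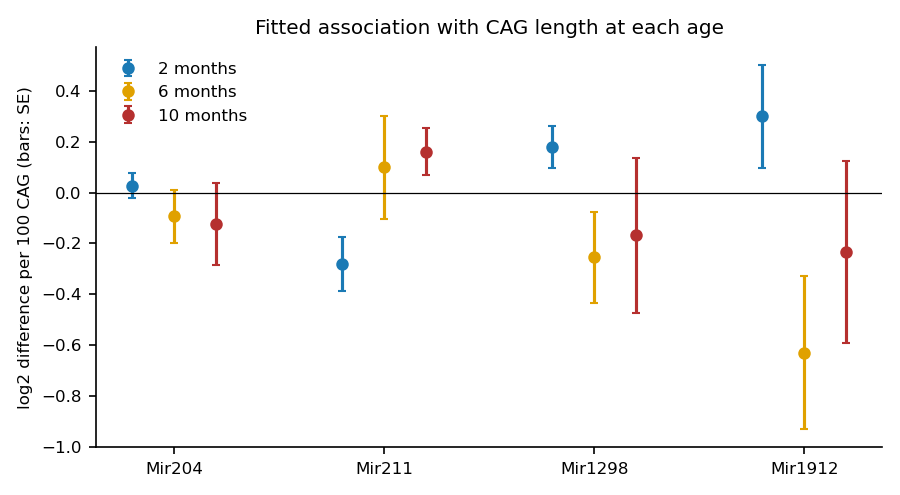
Fitted log2 change per 100 CAG for each member at 2, 6 and 10 months, with bars for 1 SE. Mir1912 has the widest bars, Mir211 lies below 0 at 2 months and above it at 6 and 10 months, and no estimate passed the FDR of 0.05.

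Each mutant genotype was set against the controls of its age (Q20 and WT, Q20 alone at 6 months), which came from another line than the mutants. The 15 comparisons share controls within an age. Members were called in 1 of them, Q175 at 10 months, in which 12.2% of 327 microRNAs were called. By the code read as the cage, which holds the line's name, the Q175 mice of that age shared no cage with the controls. Line and cage cannot be told apart. Mir204 fell by 0.72 ± 0.23 on the log2 scale (0.607-fold, adjusted p = 0.0398), Mir1298 by 1.40 ± 0.43 (0.380-fold, adjusted p = 0.0375) and Mir1912 fell by 1.86 ± 0.59 (0.276-fold, adjusted p = 0.0398). Mir211 was at 0.28 ± 0.18 (adjusted p = 0.379). The neighbours in Htr2c were at -1.52 ± 0.41 for Mir448, which was called (adjusted p = 0.0163), -0.62 ± 0.22 for Mir1264 (0.0766) and -0.38 ± 0.14 for Mir764 (0.0906).

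These 3 calls were lost without the high libraries, which were 5 of 8 in Q20, 3 of 8 in WT and 0 of 8 in Q175. Without the high libraries the difference was -0.16 ± 0.07 for Mir204, -0.07 ± 0.16 for Mir1298 and -0.19 ± 0.41 for Mir1912, with adjusted p of 0.219, 0.829 and 0.823. Mir448 was itself called lower in Q175 and follows Mir1298, so this choice took out 8 of the 16 controls, those with the highest Mir1298, and a smaller difference follows from it by construction. The groups overlapped for each microRNA with all libraries in. The calls were also lost when all transcripts of the table were tested in place of the microRNAs, with adjusted p of 0.131, 0.126 and 0.160 at nearly the same differences.

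In the other 14 comparisons no member was called. The background was 0.311% in Q92 at 6 months and 2.77% in Q175 at 6 months, and 0% in the other 12, where 4 to 48 microRNAs had an unadjusted p under 0.05. Over all 15, the log2 difference ran from -0.72 to 0.25 for Mir204, from -1.40 to 0.45 for Mir1298, from -1.86 to 0.49 for Mir1912 and from -0.50 to 0.39 for Mir211. The highest Mir211 value was that of Q111 at 10 months, 0.39 ± 0.13, with an adjusted p of 0.392.

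Age moved the members in both directions. In the joint fit of the 2 and 10 month libraries, 65.5% of 328 microRNAs were called, 104 higher and 111 lower at 10 months. All 4 members were called, against a background in which most microRNAs were. The L numbers of the library names, read as lanes, were 1 to 5 and 7 at 2 months and 6 to 8 at 10 months. Number 7 was given to 4 and 25 libraries, and an equal number does not show a shared run. Age and run of the libraries cannot be told apart, and the part of lane in the age differences was not tested. Mir204 was higher by 0.32 ± 0.09 on the log2 scale (1.25-fold, adjusted p = 0.0010), Mir1298 by 0.55 ± 0.17 (1.47-fold, adjusted p = 0.0021) and Mir1912 by 1.20 ± 0.24 (2.30-fold, adjusted p = 3.26e-06). Mir211 fell by 0.55 ± 0.08 (0.683-fold, adjusted p = 4.28e-09).

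The rise of the first 3 was not kept in a fit without the high libraries, which were 21 of 56 at 10 months and 6 of 56 at 2 months. Without them Mir1298 was lower at 10 months by log2 -0.52 ± 0.05 (0.695-fold, adjusted p = 9.11e-17) and Mir204 by log2 -0.15 ± 0.03 (0.903-fold, adjusted p = 3.71e-06). Mir1912 was then at -0.071 ± 0.15 (adjusted p = 0.703), and Mir211 kept its decrease at -0.58 ± 0.10 (adjusted p = 7.36e-07). The libraries left out were chosen by a microRNA that follows Mir204, Mir1298 and Mir1912, so their removal takes away the upper tail of these 3 by construction. More were left out at 10 than at 2 months. For these 3 the lower estimates follow in part from that choice, and their p-values do not test age apart from it. In order of age, median Mir1298 levels were 266, 223 and 187 CPM in the libraries that were not high and 468, 690 and 824 CPM in the high ones.

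Neighbours in Htr2c differed with age as well. With all libraries, Mir448 was higher at 10 months by 0.43 ± 0.17, whereas Mir1264 fell by 0.47 ± 0.10 and Mir764 fell by 0.62 ± 0.06. All 3 were called, in a fit that called 65.5% of 328 microRNAs. Without the high libraries the 3 estimates were -0.64, -0.86 and -0.71, and all were called, as were 209 of 328 microRNAs. The high libraries were chosen by Mir448 itself and were 21 of 56 at 10 months and 6 of 56 at 2 months. The Mir448 estimate without them is therefore lowered by construction.

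**Figure D5:**
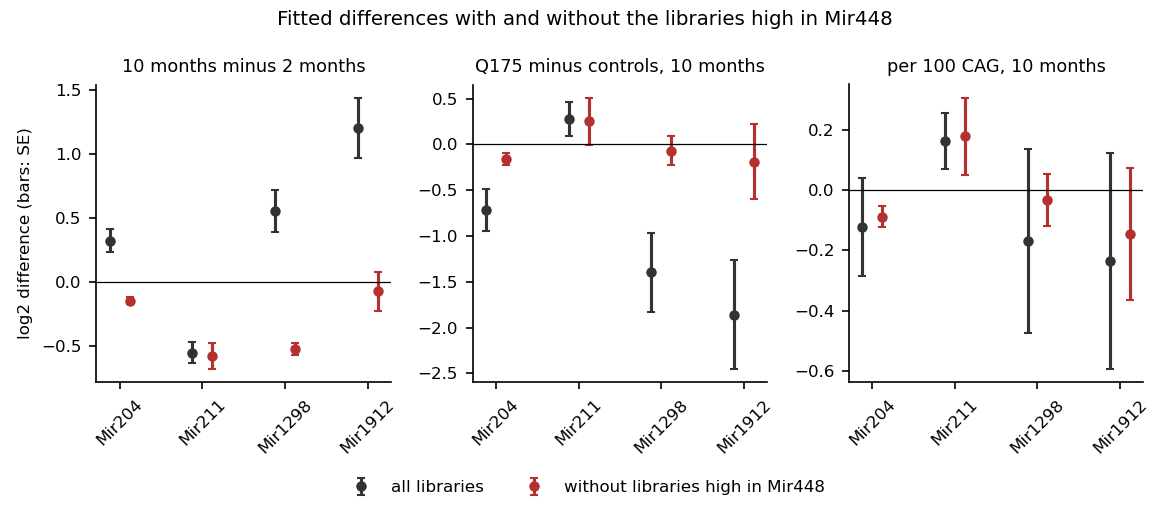
Fitted log2 differences for age, for Q175 against controls at 10 months and per 100 CAG at 10 months, with all libraries (black) and without the libraries high in Mir448 (red); bars are 1 SE. For age, Mir1298 moves from 0.55 to -0.52 and Mir204 from 0.32 to -0.15, while Mir211 stays at -0.55 and -0.58.

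Whether the age difference changed with CAG length was tested as an interaction, for which 1.83% of 328 microRNAs were called and no member was. Mir211 had an estimate of 0.43 ± 0.14 per 100 CAG, with an adjusted p of 0.102. The estimates were -0.17 ± 0.16 for Mir204, -0.36 ± 0.30 for Mir1298 and -0.55 ± 0.42 for Mir1912. Without the Q175 mice these 3 turned to 0.15, 0.17 and 0.16.

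Sex was taken as female minus male in the same fits as CAG length. No member was called at 2, 6 or 10 months, where 0.612%, 0.306% and 0.305% of the microRNAs were called. Over the 3 ages the log2 difference ran from -0.14 to 0.07 for Mir204, from -0.10 to 0.25 for Mir211, from -0.28 to 0.25 for Mir1298 and from -0.36 to 0.56 for Mir1912. The lowest adjusted p was 0.520, for Mir1912 at 6 months.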

How the data were processed

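Small RNA from 168 cortex libraries was sequenced. Per the study's methods, the authors clipped the reads and aligned them to mm10 with STAR at default settings. The submitters' processing notes also name CASAVA 1.8.2. The methods describe read counts per gene, whereas the deposited table holds, for each Ensembl transcript, an estimated count that need not be whole and is not normalized. The deposited FPKM table was not used.

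Here the counts were rounded and given gene names from the GENCODE annotation of GRCm38. For testing, edgeR 4.0.16 (R 4.3.3) was used with TMM factors on totals over all transcripts and robust quasi-likelihood F tests (two-sided). The microRNAs tested were those of the study's list with at least 1 count in a fit. Benjamini-Hochberg adjustment ran over all of them, and a call needed an FDR of 0.05. CAG length was numeric. Sex was a covariate, and so was the library code at 6 months. For 2 libraries sex was taken from the code read as the cage, where the labels gave another. The age fit held sex and CAG length. Each SE is the coefficient divided by the root of F. Z values of 6 and 10 months were added and divided by the root of their number. Nothing in the labels gives litters, so p-values measure the spread between these mice. The code read as the cage holds the name of a single line. Line and cage therefore cannot be told apart.

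Alternatives were RLE factors, library size alone, DESeq2 1.42.0, filterByExpr, all transcripts, replaced outlier counts, the labels' sex, lane as a covariate, no library code, LB libraries alone, the 6 month WT libraries included, Q20 controls alone, no Q175 mice, a replicate block, library-size CPM and a pseudocount of 0.1. Leaving out the libraries high in Mir448 was added after seeing the data. The members and lists were chosen with earlier results of these data known. By rule, the text names the 4 members, the other microRNAs in Htr2c introns and, for each member, the 3 microRNAs with the highest rho. The single markers given with values were picked once their values were known. The code was tested on simulated data.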

Additional observations from a re-analysis of the deposited data

Results flagged for a closer look

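Within the 84 sets of 8 libraries (4 members, 21 genotype and age groups), 15 had a library whose gap to the nearest of the others took up an unusually large share of the range of the set. For independent, normally distributed values chance flags about 1 set in 20. The CPM values used here have long upper tails and the sets share libraries, so the share to be flagged by chance is not known. Of the 15 flagged sets, 11 had their outlier in a library high in Mir448, where 32 of the 160 libraries of the comparisons were high. Those libraries were chosen by a microRNA that follows Mir204, Mir1298 and Mir1912, and some were flagged for several members. The male Q111 library of 2 months with replicate number 2 was far above its group in Mir204 (5465 CPM), Mir1298 (745 CPM) and Mir1912 (5.60 CPM). The male Q175 library of 2 months with replicate number 1 was so in Mir204 (4916 CPM), Mir1298 (693 CPM) and Mir1912 (7.78 CPM). The female Q140 library of 6 months with replicate number 1 was so in Mir204 (5598 CPM) and Mir1298 (690 CPM). The male Q20 library of 10 months with replicate number 2 was so in Mir204 (10922 CPM), and it also had the fewest counts of all libraries. Mir1912 stood out in the male Q140 library of 2 months with replicate number 3 (4.39 CPM) and in the female Q20 library of 2 months with replicate number 1 (3.61 CPM).

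The other 4 lay in libraries that were not high in Mir448. Mir211 stood out in the male Q175 library of 10 months with replicate number 4 (18.3 CPM, others 4.40 to 7.03 CPM) and in the female Q80 library of 6 months with replicate number 3 (17.04 CPM, others 4.06 to 7.35 CPM). The female WT library of 6 months with replicate number 3 had the highest Mir204 (3260 CPM) and the lowest Mir1298 (220 CPM) of its group.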

How the results depend on the processing

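Of 446 values under an alternative, 413 kept their direction and their side of the threshold, with a count of members called taken as kept within 1.5 times. Among the kept counts, that of age went from 4 to 3 without the libraries high in Mir448, and Mir204 and Mir1298 in it changed sign. Inclusion of the 6 month WT libraries raised the members called for CAG length at 6 months and in the meta-analysis from 0 to 1 each (Mir1298, -0.49 per 100 CAG and Z = -2.66), and Mir211 at 6 months turned to -0.14. Calls against controls dropped from 3 to 0 with all transcripts tested and to 0 without the libraries high in Mir448. Without those libraries CAG estimates turned to -0.058, -0.010 and -0.13 (Mir204, Mir1298, Mir1912) at 2 months and to 0.055, 0.12 and 0.098 at 6 months, the Z of Mir1298 to 0.93, and the age differences to -0.15, -0.52 and -0.071. With replaced outlier counts Mir204 at 2 months turned to -0.015, and without a change of sign Mir1298 and Mir1912 at 2 months moved to 0.027 and 0.037, Mir211 at 10 months to 0.074, Mir1912 at 6 months to -0.013 and its Z to -0.51. Without the Q175 mice the 10 month estimates turned to 0.18, 0.34 and 0.35, the Z values of Mir204 and Mir1298 to 0.45 and 0.11, and the interactions to 0.15, 0.17 and 0.16. Library-size CPM turned rho between Mir204 and Mir211 at 2 months to 0.00082. The cause of these reversals was not tested. Over all microRNAs, the calls for CAG length at 6 months went from 9 to 156 with the WT libraries included, 20 with all transcripts, 15 without the library code, 4 with replaced outlier counts, 3 with LB libraries alone and 0 without the Q175 mice or without the libraries high in Mir448. Those at 10 months went from 29 to 1 and those of the meta-analysis from 39 to 4 without the Q175 mice, the latter to 111 with the WT libraries included. Those of Q175 at 10 months went from 40 to 26 with all transcripts and to 21 without the libraries high in Mir448, those of Q175 at 6 months from 9 to between 0 and 15, those of age from 215 to 374 with all transcripts, and those of the interaction from 6 to 3 with filterByExpr and to 0 without the Q175 mice. In comparisons with 0 or 1 call, the alternatives gave 0 to 6. The filterByExpr filter dropped Mir1912 at 2 months, which left no value there. With few Mir1912 and Mir211 counts, small differences were not detectable at this depth.

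Replicate numbers were entered as a replicate block, although the check did not show that they pair mice. Libraries with the same number had a median correlation of deviations of -0.027 against 0.013 for other numbers, and 179 of 444 pairs exceeded 0.1. With the block 0 members were called for CAG length at 2, 6 and 10 months and in the meta-analysis, as without it, and Mir1298 at 10 months was at -0.20 per 100 CAG. Over all microRNAs the calls went from 9 to 15 at 6 months, from 29 to 26 at 10 months and from 39 to 42 in the meta-analysis.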
